A study of Rattus norvegicus with 18 samples.

Results

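The 10 genes described here carry the work of the principal cell, the collecting duct cell that sets how much water and sodium leave in the urine. They were chosen by symbol: Aqp2, Aqp3 and Aqp4 (water channels), Avpr2 (the vasopressin receptor), Elf5 (a transcription factor of the principal cell), Scnn1a, Scnn1b and Scnn1g (the alpha, beta and gamma subunits of the epithelial sodium channel, ENaC), Hsd11b2 (the enzyme that inactivates glucocorticoids in aldosterone target cells) and Nr3c2 (the mineralocorticoid receptor). All 10 were found among the 30957 genes of the deposited table, 22014 of them with any count. Elf5 stood on 2 rows, and the row with the most counts was taken.

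The data are poly(A) RNA sequencing of rat renal parenchyma after the left ureter had been tied, the unilateral ureteral obstruction model. The 18 libraries comprise 5 labelled 1 day, 5 labelled 3 days, 5 labelled 7 days and 3 labelled 14 days after ligation. The labels call each of them an obstructed kidney, so groups differ by the labelled time since ligation, and the sham group that the design names was not analysed here. The sources used here do not give strain, age or sex. Nothing in the labels says that each library is its own animal, so p-values rest on library-to-library spread, some of which can be technical. Levels are given as FPKM (fragments counted in a gene, scaled to the gene's length and the library's total), the deposited unit, which allows levels of different genes to be set side by side.

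In the principal cell, vasopressin binds Avpr2 on the basolateral side, cAMP rises, and vesicles that carry Aqp2 fuse with the apical membrane, so that water enters from the urine and leaves through Aqp3 and Aqp4 on the blood side. Aldosterone binds Nr3c2 and raises apical ENaC activity in part through the kinase Sgk1, while Hsd11b2 keeps the receptor free of glucocorticoid. Loss of collecting duct aquaporins is a known feature of the obstructed kidney and of the concentrating defect that follows it.

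Promoter windows are shown as a description, and their part in the levels given below was not tested. RefSeq (GRCr8) windows of 300 bases, 250 before to 50 after the start site, were held for 6 of the 10 genes: Aqp2, Aqp3, Aqp4, Avpr2, Scnn1b and Scnn1g. The windows of Aqp2, Aqp3, Scnn1b and Scnn1g are printed 5′ to 3′, with matches to the searched motifs in capitals.
Aqp2 (chr7:132590036-132590335, + strand): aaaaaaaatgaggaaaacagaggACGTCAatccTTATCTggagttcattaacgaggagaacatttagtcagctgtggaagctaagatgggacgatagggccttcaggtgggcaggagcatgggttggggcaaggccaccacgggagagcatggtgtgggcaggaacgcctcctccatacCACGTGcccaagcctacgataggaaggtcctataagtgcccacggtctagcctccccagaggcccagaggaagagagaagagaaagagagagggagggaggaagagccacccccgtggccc
Aqp3 (chr5:61040634-61040933, - strand): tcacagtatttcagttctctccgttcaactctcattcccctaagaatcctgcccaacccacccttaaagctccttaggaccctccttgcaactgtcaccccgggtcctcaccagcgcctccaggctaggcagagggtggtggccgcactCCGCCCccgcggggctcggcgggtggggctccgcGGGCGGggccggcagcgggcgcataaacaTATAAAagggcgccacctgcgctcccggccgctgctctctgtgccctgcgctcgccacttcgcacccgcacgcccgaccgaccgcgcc
Scnn1b (chr1:185861126-185861425, + strand): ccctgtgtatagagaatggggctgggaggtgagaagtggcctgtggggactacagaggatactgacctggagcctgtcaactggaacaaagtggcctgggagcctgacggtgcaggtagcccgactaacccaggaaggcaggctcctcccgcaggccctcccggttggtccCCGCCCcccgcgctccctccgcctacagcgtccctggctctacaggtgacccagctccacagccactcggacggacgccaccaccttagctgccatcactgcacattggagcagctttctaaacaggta
Scnn1g (chr1:185735975-185736274, + strand): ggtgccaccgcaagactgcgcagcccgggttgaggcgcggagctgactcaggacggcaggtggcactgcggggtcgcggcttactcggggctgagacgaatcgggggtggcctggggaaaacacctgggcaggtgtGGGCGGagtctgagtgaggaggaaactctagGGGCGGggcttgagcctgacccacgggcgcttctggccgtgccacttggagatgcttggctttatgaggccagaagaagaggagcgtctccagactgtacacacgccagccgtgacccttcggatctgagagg
Both strands were searched for TGACGT (the core of a cAMP response element), AGATAA (a site of GATA factors), CACGTG (an E-box), GGGCGG (a GC box), TATAAA (the TATA box) and a steroid response element (AGAACA followed after 3 bases by its reverse complement), and the motifs were picked after the sequences had been seen. The Aqp2 window held TGACGT on the reverse strand (read as ACGTCA, first base at -227 from the start site), AGATAA on the reverse strand (read as TTATCT, at -217) and CACGTG at -71. These motifs occur in 7.94%, 11.6% and 6.42% of 33469 RefSeq rat promoter windows of the same length. The ENaC windows held GC boxes, 2 in Scnn1g (at -114 and -83) and 1 on the reverse strand in Scnn1b (at -79), a motif found in 33.1% of all windows. The Aqp3 window held 2 GC boxes and a TATA box at -38, the last found in 14.2% of windows. A GC box stood in 1 of the 2 windows held for Aqp4, and a TATA box on the reverse strand in that of Avpr2. The steroid response element matched no window of these 6 genes and 0.0149% of all windows. No 2 matches overlapped. Scnn1g and Scnn1b also lie close together on chromosome 1, in the deposited coordinates at 191704311 to 191738268 and 191829555 to 191884298, both on the + strand, with no genome build named.

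Library totals ran between 5488540 and 12049915 counts. Replicate 5 of day 1 and replicates 1 and 3 of the libraries labelled 14 days stood apart from the rest in the genes described here, and each result below is given with and without them where it rests on them. Tubular injury markers (Havcr1, Lcn2, Spp1 and Krt20) summed to 50.9, 269.6 and 92.7 FPKM in the libraries labelled 14 days, against 6459 to 17655 FPKM in the 15 earlier libraries. Havcr1 (KIM-1, a protein of injured proximal tubule) had 1.52, 7.45 and 0.317 FPKM in the libraries labelled 14 days, against 188 to 1040 FPKM earlier. Spp1 made up most of the injury marker sums. Krt20 was low throughout, at 0.582, 0 and 1.07 FPKM in the libraries labelled 14 days, against 0 to 0.517 FPKM earlier. No other reference for 14 days was analysed here, so whether the label of 14 days of obstruction holds was not tested. Differences given for those libraries below are between libraries so labelled. Intercalated cell markers, which mark neighbouring cells of the duct, summed to 527, 574 and 11.9 FPKM in replicates 1, 2 and 3 at 14 days, against 269 to 498 FPKM earlier. Urothelial markers, of which 6 of 7 were found, summed to 282, 5.41 and 10.5 FPKM in replicates 1, 2 and 3 at 14 days. They summed to 90.5 FPKM in replicate 5 of day 1, against 0.295 to 71.0 FPKM in the other 14 libraries of days 1, 3 and 7. Thick ascending limb markers summed to 105, 2622 and 46 FPKM in replicates 1, 2 and 3 at 14 days, against 105 to 685 FPKM in the 15 earlier libraries. Smooth muscle markers summed to 691, 77.9 and 478 FPKM at 14 days, against 51.0 to 180.2 FPKM earlier. Adipocyte markers summed to 56.0, 41.1 and 386 FPKM, against 6.64 to 20.8 FPKM earlier, and proximal tubule markers to 335, 2718 and 83.6 FPKM, against 599 to 4117 FPKM earlier. The part of tissue composition in the results below was not tested, and in bulk tissue fewer cells of a type and less RNA per cell cannot be told apart.

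**Figure D1:**
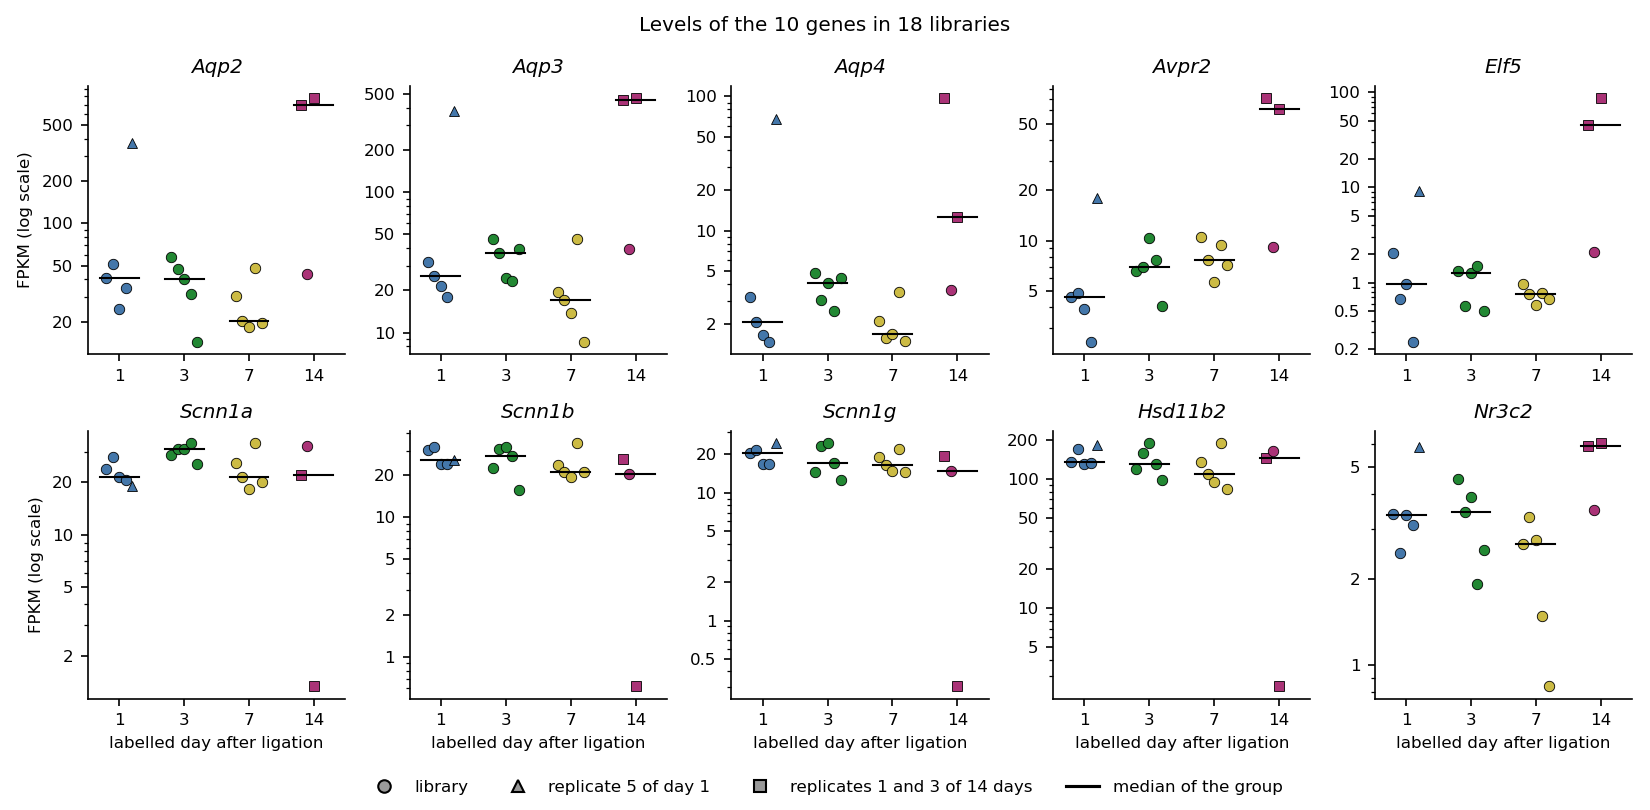
FPKM (log scale) of the 10 genes in each of the 18 libraries by labelled day, with black lines at the group medians. The triangle is replicate 5 of day 1 and the squares are replicates 1 and 3 at 14 days, which hold the highest Aqp2 and Aqp3 values; in the lower row replicate 3 at 14 days lies far below all other libraries for the 3 ENaC subunits and Hsd11b2.

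Aqp2, the vasopressin-regulated apical water channel, had levels of 40.9, 51.1, 24.8, 34.7 and 371 FPKM in the 1-day libraries. The 3-day libraries had 57.9, 47.7, 40.2, 31.5 and 14.4 FPKM and the 7-day libraries 30.4, 20.4, 18.5, 48.4 and 19.5 FPKM. Replicate 5 of day 1 was 9.81 times the median of the other 4 libraries of that day, and apart from it the 3 durations overlapped. In the 15 libraries Aqp2 was lower at 7 than at 1 day, by -2.0 ± 0.66 on the log2 scale (± SE, edgeR adjusted p = 0.0274). Without replicate 5 of day 1 the change was -0.58 ± 0.36 and the call was lost (edgeR adjusted p = 0.207). Leaving out replicate 2, 3 or 5 of day 7 also ended it.

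Aqp3, the basolateral channel for water and glycerol, had 31.6, 25.4, 21.5, 17.9 and 380.4 FPKM in the 1-day libraries. Its levels were 46.1, 36.8, 24.4, 23.3 and 39.1 FPKM after 3 days and 19.5, 17.1, 13.7, 46.5 and 8.60 FPKM after 7 days. Aqp4, the second basolateral water channel, was the lowest of the aquaporins among the 10 genes at every duration, with 1.48 to 4.79 FPKM in 14 of the 15 libraries and 67.6 FPKM in replicate 5 of day 1. Both followed Aqp2 in that library. The 7-day against 1-day changes were -2.25 ± 0.78 for Aqp3 (edgeR adjusted p = 0.0345) and -2.94 ± 0.95 for Aqp4 (0.0238) in the 15 libraries. They were -0.31 ± 0.37 and -0.14 ± 0.28 without replicate 5 of day 1, and neither passed the test (edgeR adjusted p = 0.515 and 0.717). The Aqp3 call was also lost without replicate 1, 2, 3 or 5 of day 7, and the Aqp4 call without replicate 5 of day 7.

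These were the only 3 of the 9 tested genes to pass the test at 7 against 1 day, all lower, where 38.2% of the 13991 genes tested were called and 20.2% were called lower. With edgeR none of the 9 was called at 3 against 1 day, where 10.5% of all tested genes were called, or at 7 against 3 days, where 7.92% were. At an unadjusted p under 0.05 the counts were 3 (Aqp2, Aqp4 and Scnn1a) and 1 (Scnn1a). DESeq2 and limma on log2 FPKM also called none in either comparison, and voom with sample weights called Scnn1a in both. A test for any difference among days 1, 3 and 7 called Aqp2 (edgeR adjusted p = 0.0492) and Aqp4 (0.0404), where 34.4% of tested genes were called. Each of these calls was lost in 10 of the 15 omissions of a single library. Without replicate 5 of day 1 it called Aqp4 (0.0189) and Avpr2 (0.0332) instead, where 39.1% were called. With that library left out Aqp4 was 0.81 ± 0.28 higher at 3 than at 1 day on the log2 scale (edgeR adjusted p = 0.068), and again edgeR called none of the 9 there (2 at an unadjusted p under 0.05, Avpr2 and Aqp4), where 14.3% of tested genes were called. Elf5, at 0.239 to 2.03 FPKM in the 14 libraries other than replicate 5 of day 1 (9.10 FPKM), was too low to be tested among days 1, 3 and 7.

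Avpr2, the receptor that starts the signal to Aqp2, had 4.63, 4.87, 3.92, 2.49 and 18.0 FPKM in the 1-day libraries. The 3-day libraries gave 6.62, 6.95, 10.4, 7.69 and 4.09 FPKM and the 7-day libraries 10.5, 7.70, 5.63, 9.45 and 7.15 FPKM. All 5 libraries at 7 days lay above the first 4 of day 1. Over the 15 libraries the 7-day against 1-day change was 0.15 ± 0.42 on the log2 scale (edgeR adjusted p = 0.804). Without replicate 5 of day 1 it was 0.90 ± 0.27 and Avpr2 was the 1 gene of the 9 that was called (edgeR adjusted p = 0.0155), where 41.5% of tested genes were called.

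**Figure D2:**
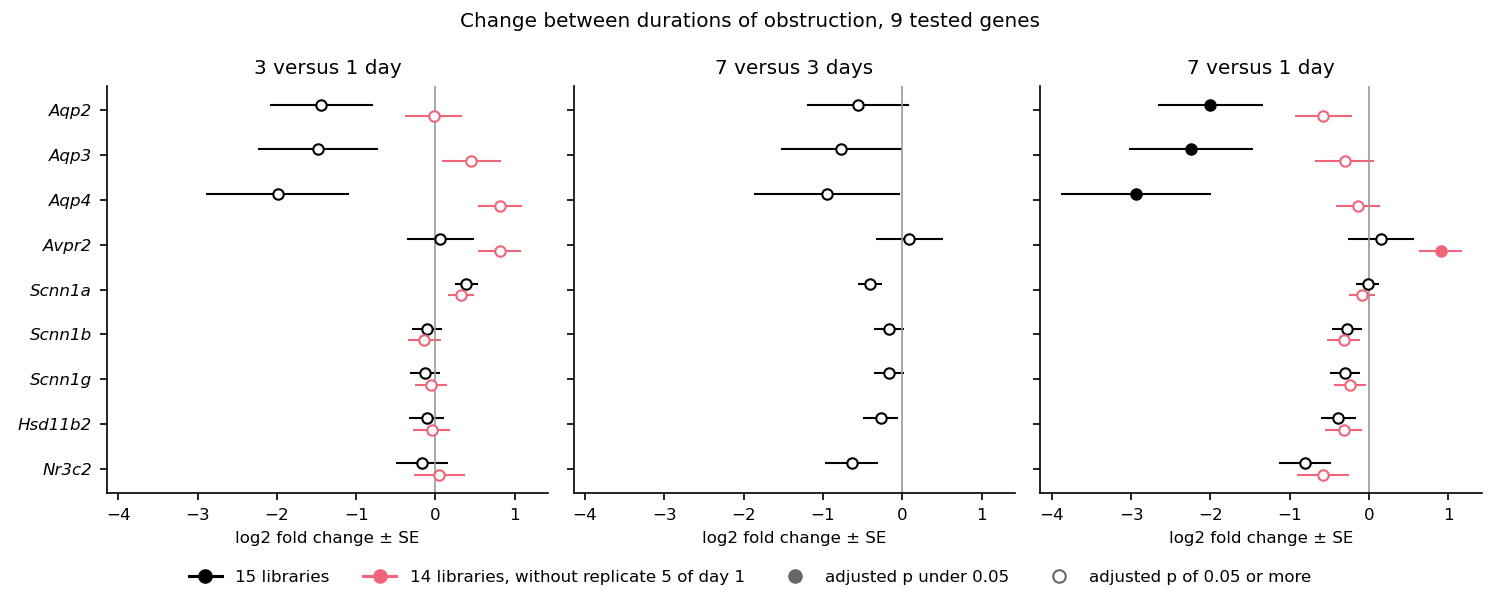
Log2 fold change ± SE (edgeR) of the 9 tested genes between durations, in all 15 libraries (black) and without replicate 5 of day 1 (red), with filled points where the adjusted p was under 0.05. The aquaporins are called lower at 7 against 1 day in the black points alone, at -2.0, -2.25 and -2.94, and Avpr2 is called higher in the red points alone, at 0.90.

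The ENaC subunits moved little over the first week. Scnn1a had 24.0, 27.9, 21.5, 20.7 and 19.2 FPKM in the 1-day libraries. It had 28.9, 31.2, 31.0, 33.9 and 25.6 FPKM in the 3-day libraries and 26.0, 21.4, 18.4, 33.8 and 20.0 FPKM in the 7-day libraries. Its changes were 0.39 ± 0.15 at 3 against 1 day (edgeR adjusted p = 0.113) and -0.41 ± 0.15 at 7 against 3 days (0.101), neither past the threshold. Scnn1b averaged 27.1 ± 3.6, 25.5 ± 6.64 and 23.9 ± 5.89 FPKM, and Scnn1g 20.0 ± 3.28, 18.4 ± 5.30 and 17.3 ± 3.06 FPKM, in the libraries of days 1, 3 and 7 (SD, n = 5 each). For Scnn1b and Scnn1g the 7-day against 1-day changes were -0.28 ± 0.19 and -0.30 ± 0.19 on the log2 scale, within the spread between libraries. Replicate 5 of day 1, at 25.6 FPKM of Scnn1b, lay within the other libraries of its day, and at 24.5 FPKM of Scnn1g it lay above their 16.7 to 21.4 FPKM.

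The alpha subunit made up more of the channel's mRNA in every 3-day library than in any 1-day library. Scnn1a made up 32.5 ± 2.83% of the summed FPKM of the subunits at 1 day, 41.4 ± 5.12% at 3 days and 36.5 ± 1.25% at 7 days (SD, n = 5 each). Its share was 27.7 to 34.5% in the 1-day libraries, 35.5 to 47.6% in the 3-day libraries and 34.9 to 37.8% in the 7-day libraries, so neither later group overlapped the first. The mean log2 ratio of Scnn1b to Scnn1a was -0.28 ± 0.30 at 3 days and 0.26 ± 0.11 at 1 day, a difference of -0.54 (exact two-sided permutation test, p = 0.00794, the smallest that 5 against 5 libraries allow). It was 0.01 ± 0.09 at 7 days and 0.26 ± 0.11 at 1 day, a difference of -0.26 (exact permutation p = 0.00794). Adjusted over the 15 ratio tests made, both gave 0.0595, and none of the 15 passed 0.05.

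**Figure D3:**
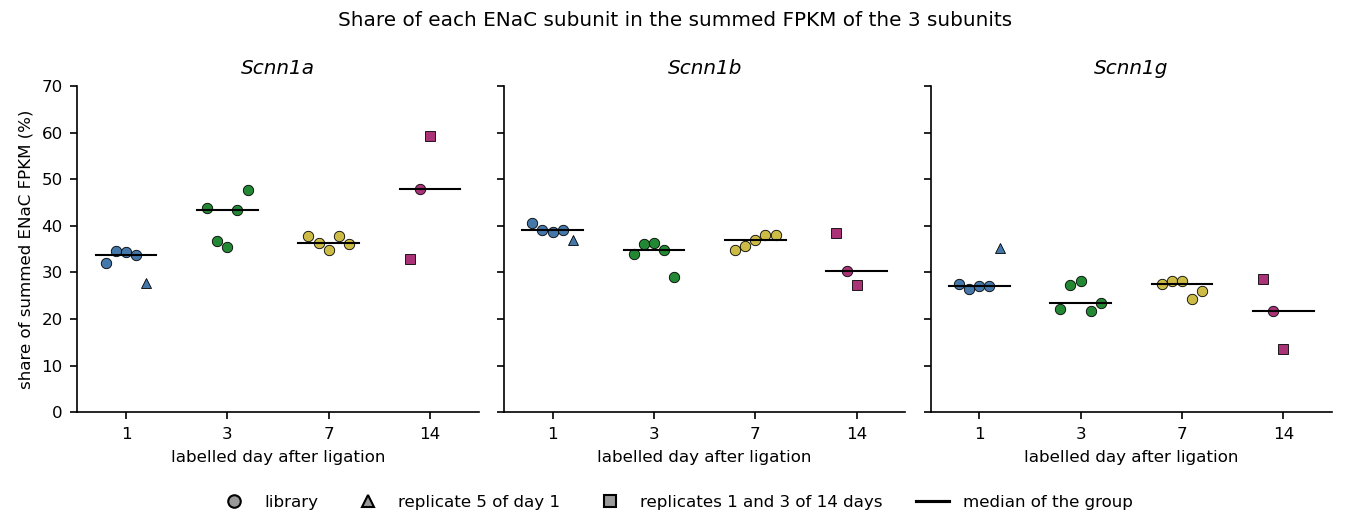
Percent of the summed FPKM of the ENaC subunits that each subunit made up in each library, by labelled day, with group medians as black lines. The Scnn1a share is at most 34.5% in every 1-day library, at least 35.5% in every 3-day library and at least 34.9% in every 7-day library.

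Hsd11b2 was the most abundant of the 10 genes at 1, 3 and 7 days, with medians of 135, 130.1 and 109 FPKM. It ranged between 84.4 and 190.5 FPKM over the 15 libraries, and its 7-day against 1-day change was -0.39 ± 0.22 (edgeR adjusted p = 0.178). Nr3c2, the receptor whose ligand access Hsd11b2 controls, was far lower, at 3.40, 2.47, 3.37, 3.12 and 5.86 FPKM in the 1-day libraries. The 3-day libraries had 4.51, 3.47, 3.90, 1.93 and 2.54 FPKM and the 7-day libraries 2.66, 3.32, 2.76, 1.48 and 0.838 FPKM. Its 7-day against 1-day change of -0.81 ± 0.33 did not pass (edgeR adjusted p = 0.0691). At 1, 3 and 7 days the order of medians ran Hsd11b2 first and Elf5 last, with the ranges of the ENaC subunits, Aqp2 and Aqp3 overlapping in between.

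Between libraries the closest of the 8 pairs computed were Scnn1b with Scnn1g and Scnn1g with Hsd11b2. Over the 14 libraries of days 1, 3 and 7 other than replicate 5 of day 1, log2 FPKM of Scnn1g correlated with Hsd11b2 at Pearson r = 0.90 (permutation p = 2e-05) and Spearman rho = 0.94 (p = 1e-05, the smallest that 100000 resamples can give), and Scnn1b with Scnn1g at r = 0.92 (permutation p = 2e-05) and rho = 0.92 (p = 3e-05). These values were 0.87 and 0.90 without the 2 libraries farthest from the median of the first-named gene, and 0.90 and 0.92 for deviations from the day means. Aqp2 correlated with Scnn1b at r = 0.82 (permutation p = 0.00041, rho = 0.74 with p = 0.00313; 0.67 without the 2 farthest libraries, 0.82 for deviations from the day means). Aqp2 correlated with Hsd11b2 at r = 0.78 (permutation p = 0.00096, rho = 0.71 with p = 0.00609; 0.70 without the 2 farthest libraries, 0.75 for deviations from the day means). With Aqp3 the correlation was r = 0.56 (permutation p = 0.0372, rho = 0.64 with p = 0.0176; 0.86 without the 2 farthest libraries, 0.51 for deviations from the day means). With Avpr2 it was r = 0.18 (permutation p = 0.541, rho = 0.10 with p = 0.74; 0.24 without the 2 farthest libraries, 0.63 for deviations from the day means). With Aqp4 it was r = 0.41 (permutation p = 0.142, rho = 0.41 with p = 0.149; 0.77 without the 2 farthest libraries, 0.44 for deviations from the day means). Scnn1a correlated with Scnn1b at r = 0.61 (permutation p = 0.0217, rho = 0.67 with p = 0.0112; 0.56 without the 2 farthest libraries, 0.82 for deviations from the day means). After adjustment over the 8 pairs computed, Scnn1g with Hsd11b2 and Scnn1b with Scnn1g both stood at 8e-05 for r, Aqp2 with Scnn1b at 0.00109, Aqp2 with Hsd11b2 at 0.00192, Scnn1a with Scnn1b at 0.0348 and Aqp2 with Aqp3 at 0.0495, while Aqp2 with Aqp4 (0.162) and Avpr2 with Aqp2 (0.541) did not pass. The libraries share depth and tissue sampling differences, whose part was not tested.

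The genes most like Aqp2 among 13991, by Pearson r of log2 CPM, depended on replicate 5 of day 1. Over the 15 libraries they were Rnf186, Tmem45b, Fam3d, Ubqln4, Tbc1d2, Apcdd1l, Fry, Guca2b, Cnnm4 and Muc20, with r between 0.88 and 0.91. Over the 14 other libraries they were Fam46c, Rhcg, Scnn1b, Rhbg, Slc31a2, Klk1c9, Hsd11b2, Suco, Polr3f and Guca2b, with r between 0.74 and 0.87. Guca2b was on both lists. Rhcg and Rhbg are ammonia transporters of the collecting duct. For Scnn1g the top genes over the 15 libraries were Hsd11b2 (r = 0.92), Scnn1b (0.88), Rhbg (0.87), Degs2, Phactr1, Ptges, Podxl, Vsig1, A4galt and Kat8. Scnn1b (0.93) and Hsd11b2 (0.91) remained the top pair without replicate 5 of day 1.

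The libraries labelled 14 days did not form a group in these genes. Aqp2 had 694, 43.8 and 777 FPKM in replicates 1, 2 and 3, against 14.4 to 57.9 FPKM in the 14 earlier libraries other than replicate 5 of day 1. Replicates 1 and 3 were 21.0 and 23.5 times the median of those 14, and replicate 2 was 1.32 times that median. Aqp3 had 455, 39.2 and 466 FPKM, Avpr2 had 70.9, 9.12 and 61.5 FPKM and Elf5 had 44.9, 2.10 and 86.7 FPKM, the same split. Aqp4 differed between the high libraries too, at 97.0 FPKM in replicate 1 and 12.7 FPKM in replicate 3, with 3.62 FPKM in replicate 2.

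The sodium side split in another way. Scnn1a had 22.2, 32.3 and 1.33 FPKM, Scnn1b 25.9, 20.3 and 0.616 FPKM, Scnn1g 19.3, 14.7 and 0.305 FPKM and Hsd11b2 145, 165 and 2.50 FPKM in replicates 1, 2 and 3. Replicate 3 thus held the highest Aqp2 level of the series beside the lowest levels of ENaC and Hsd11b2, from counts of 29, 11, 6 and 30 for Scnn1a, Scnn1b, Scnn1g and Hsd11b2. Its Hsd11b2 level was 4.65 CPM (95% Wilson interval 3.26 to 6.64, counting error alone), against 307 CPM (293 to 322) in replicate 2. Summed FPKM of Aqp2, Aqp3 and Aqp4 was 18.5, 1.29 and 557 times that of the ENaC subunits in replicates 1, 2 and 3, against 0.533 to 1.65 times in the 14 earlier libraries and 11.8 times in replicate 5 of day 1. Nr3c2 had 5.91, 3.51 and 6.07 FPKM and did not fall with its partner enzyme in replicate 3.

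**Figure D4:**
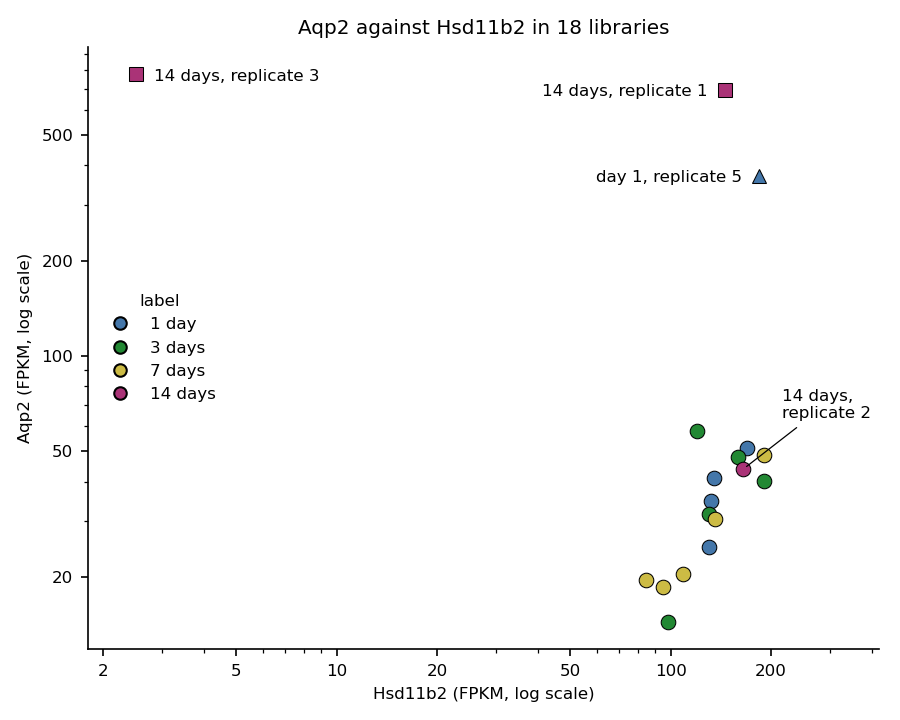
Aqp2 against Hsd11b2, both in FPKM on log scales, in the 18 libraries, coloured by labelled day. Most libraries form a cloud at 14.4 to 57.9 FPKM of Aqp2 that includes replicate 2 at 14 days, replicate 5 of day 1 and replicate 1 at 14 days lie above it at similar Hsd11b2, and replicate 3 at 14 days sits alone at 2.50 FPKM of Hsd11b2.

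Other genes were high in the same libraries. Fxyd4, a regulator of the sodium pump in the collecting duct, had 293, 9.14 and 237 FPKM at 14 days and 102 FPKM in replicate 5 of day 1, against 2.21 to 8.22 FPKM in the other 14 libraries. Slc14a2, the urea transporter of the inner medullary collecting duct, named after its values were seen, had 166, 0 and 123 FPKM at 14 days and 27.4 FPKM in replicate 5 of day 1. It was also detected in replicates 1, 2 and 5 of day 3, at 7.21, 1.98 and 4.49 FPKM, and stood at 0 to 1.26 FPKM in the other 11 libraries. The region of the kidney that each piece of tissue came from is not given in the sources used here.

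Elf5 entered the test of all 18 libraries through its high libraries alone, so it is left out of the counts of this test. Of the other 9 genes 5 were called at 14 against 7 days, all higher, where 38.3% of 14511 tested genes were called and 21.4% were called higher. Log2 fold changes were 4.39 ± 0.86 for Aqp2, 4.13 ± 0.94 for Aqp3, 4.43 ± 1.16 for Aqp4, 2.76 ± 0.55 for Avpr2 and 1.5 ± 0.36 for Nr3c2. Scnn1a, Scnn1b, Scnn1g and Hsd11b2 changed by 0.10 ± 0.56, -0.20 ± 0.61, -0.19 ± 0.62 and 0.21 ± 0.69 and were not called. With replicate 2 as the lone 14-day library none of these 5 was called (Aqp2 1.29 ± 1.01, edgeR adjusted p = 0.345), while Scnn1a (1.05 ± 0.25, 0.0059) and Hsd11b2 (1.04 ± 0.36, 0.036) were, where 32.5% of tested genes were called. That fit assumes that the lone library varies like the other groups. Without replicate 1 at 14 days the Aqp4 call was lost (2.22 ± 1.09, edgeR adjusted p = 0.136). Without replicate 3 Scnn1a and Hsd11b2 were also called higher (0.65 ± 0.24 and 0.78 ± 0.29), 7 of the 9 in all, where 34.2% were called. At 14 against 3 days 4 of the 9 were called, all higher, where 28.4% of genes were called and 15.8% were called higher. At 14 against 1 day 2 were called, Aqp2 and Avpr2, both higher, where 32.0% were called and 17.7% were called higher. Without replicate 5 of day 1 it was 4, all higher, where 36.2% of tested genes were called. The Aqp2 call at 14 against 1 day was lost without replicate 1 and also without replicate 3 at 14 days. In both cases Avpr2 alone of the 9 stayed called. At 14 against 3 days the Aqp4 call was lost without replicate 1 at 14 days.

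Around vasopressin signalling more genes were called lower than higher over the week. Of 20 genes of vasopressin signalling and Aqp2 trafficking, all tested, 8 were lower and 4 higher at 7 than at 1 day, where 38.2% of all tested genes were called and 20.2% were called lower, with a median log2 fold change of -0.34 against -0.01 over all tested genes. Markers of other cell types moved over the same days. Of the fibroblast, macrophage and T cell markers 5 of 6, 4 of 5 and 5 of 5 were called higher at 7 than at 1 day, with median log2 fold changes of 1.40, 1.67 and 2.23, and their part in the results for 7 days was not tested. Ptger3, the prostaglandin E receptor that opposes vasopressin in the collecting duct and thick limb, had 63.1, 37.3, 45.5, 55.0 and 57.9 FPKM at 7 days, against 120.1, 99.8, 142, 114 and 96.2 FPKM at 1 day, with no overlap (-1.24 ± 0.21, edgeR adjusted p = 0.000492). Prkar2a and Prkacb, a regulatory and a catalytic subunit of protein kinase A, changed by -1.02 ± 0.20 and -0.99 ± 0.25, and Creb1, the cAMP-responsive transcription factor, by -1.03 ± 0.22. The 4 higher genes, looked up after their values were seen, were the adenylyl cyclase Adcy3 (0.67 ± 0.20), the prostaglandin E receptor Ptger4 (0.78 ± 0.21), the kinase subunit Prkaca (0.20 ± 0.07) and the vesicle protein Vamp2 (0.30 ± 0.11). At 3 against 1 day, where 10.5% of all tested genes were called, 1 of the 20 was called, the vesicle fusion gene Snap23 (-0.57 ± 0.14). The adenylyl cyclase Adcy6 (0.35 ± 0.07, edgeR adjusted p = 0.00837) and Vamp2 (0.37 ± 0.09, 0.0193) were called higher beside it without replicate 5 of day 1, 3 of the 20 in all, where 14.3% of tested genes were called. At 7 against 3 days, where 7.92% were called, 2 were, both lower, the vesicle motor Myo5b (-0.76 ± 0.18) and Ptger3 (-0.73 ± 0.21).

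Within the first week Fkbp5 and Zbtb16, both targets of steroid receptors, were higher at 3 days than at 1 or 7 days. Of 15 genes of aldosterone response and ENaC regulation, 4 were higher and 1 (Furin, -0.50) lower at 3 than at 1 day, where 10.5% of all tested genes were called, with a median of 0.10 against -0.02 over all tested genes. The counts were 6 higher and 1 lower without replicate 5 of day 1, where 14.3% were called. Fkbp5, a chaperone partner of steroid receptors and a glucocorticoid target, had 35.2, 31.6, 23.2, 47.0 and 50.9 FPKM at 3 days, against 18.9, 15.4, 16.1, 16.5 and 23.1 FPKM at 1 day, with no overlap (1.03 ± 0.17, edgeR adjusted p = 0.00245). Zbtb16, another glucocorticoid target, had 4.30, 3.64, 1.74, 7.41 and 6.17 FPKM at 3 days, against 0.726, 0.456, 1.60, 0.763 and 2.68 FPKM at 1 day (1.82 ± 0.43, 0.0177). Both were lower again at 7 than at 3 days, by -0.79 ± 0.17 for Fkbp5 and -1.80 ± 0.43 for Zbtb16. They were the only 2 of the 15 called there, where 7.92% of all tested genes were called. Tsc22d3 (Gilz, induced by aldosterone and glucocorticoid) was higher at 3 days (0.81 ± 0.19) and at 7 days (0.65 ± 0.19) than at 1 day. Usp2, a deubiquitinase that acts on ENaC, was higher at 3 days (0.81 ± 0.21). Furin, a protease that activates ENaC, and Nedd4l, the ubiquitin ligase that removes it from the membrane, were lower at 7 than at 1 day (-0.64 ± 0.10 and -0.40 ± 0.11). Of the 15 genes, 1 was called higher and 2 lower at 7 than at 1 day, where 38.2% of all tested genes were called. The median was 0.02 against -0.01 over all tested genes. Without replicate 5 of day 1 the counts were 3 higher and 2 lower, where 41.5% were called. Sgk1 had 46.4, 38.8, 34.2, 28.4 and 90.0 FPKM in the 1-day libraries. The 3-day libraries had 40.1, 51.3, 87.8, 73.1 and 51.7 FPKM and the 7-day libraries 58.9, 52.1, 48.2, 64.9 and 47.5 FPKM, with no difference called among the 3 days (edgeR adjusted p = 0.543). Without replicate 5 of day 1 the test of any difference gave 0.054, and Sgk1 was called higher at 3 against 1 day (0.69 ± 0.22, edgeR adjusted p = 0.0474).

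**Figure D5:**
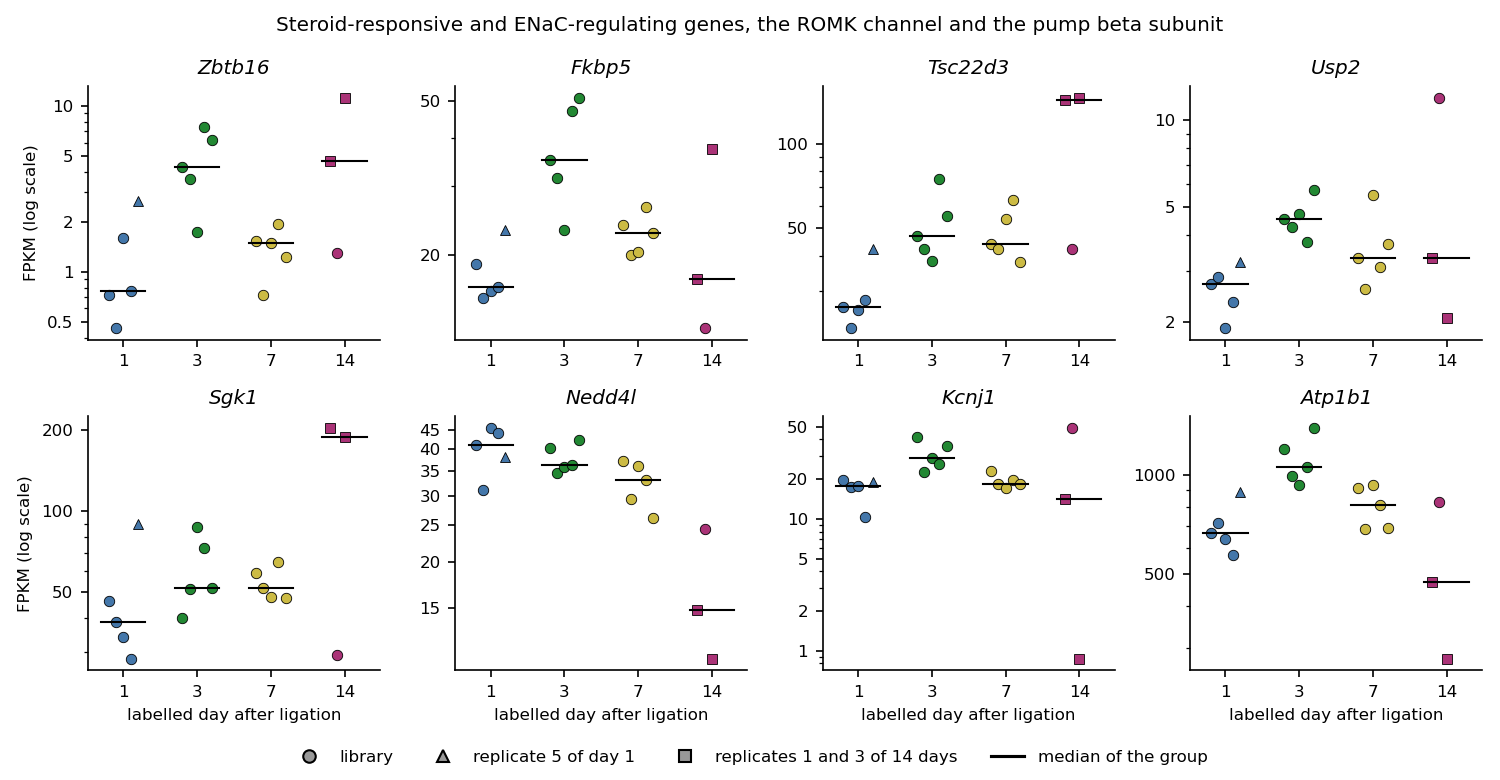
FPKM (log scale) of 8 genes of steroid response, ENaC regulation and potassium and sodium transport in each library by labelled day, with group medians as black lines. Fkbp5, Zbtb16, Kcnj1 and Atp1b1 have their highest median of days 1, 3 and 7 at 3 days, and all 5 Fkbp5 values at 3 days (23.2 to 50.9) exceed those at 1 day (15.4 to 23.1).

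Potassium channel and pump genes shared that course in part. Of 8 genes, 2 were higher at 3 than at 1 day, where 10.5% of all tested genes were called, Kcnj1 (the apical channel ROMK, 0.85 ± 0.17) and Atp1b1 (a pump beta subunit, 0.65 ± 0.14). Kcnj1 had 41.5, 22.7, 28.8, 25.8 and 35.5 FPKM at 3 days, against 19.6, 17.3, 17.7, 10.4 and 19.1 FPKM at 1 day. At 7 against 3 days, where 7.92% were called, 4 were lower, among them Kcnj10 (a basolateral potassium channel, -1.51 ± 0.31), Kcnj1 (-0.75 ± 0.17) and Atp1b1 (-0.53 ± 0.14), with a median of -0.53 against -0.01 over all tested genes. At 7 against 1 day, where 38.2% of all tested genes were called and 20.2% were called lower, 4 were lower, among them Kcnj10 (-1.54 ± 0.31), Kcnma1 (the BK channel, -0.75 ± 0.24) and Fxyd4 (-2.79 ± 0.86), the last no longer without replicate 5 of day 1 (-0.53, edgeR adjusted p = 0.199). Of these genes, Atp1b1, Kcnj1 and Kcnj10 are also expressed in the thick ascending limb or distal convoluted tubule, and values of those segments are given beside them. Thick ascending limb markers other than Kcnj1 summed to medians of 116, 233 and 213 FPKM at 1, 3 and 7 days, and 1 of the 4 (Cldn16) was called higher at 3 than at 1 day. Distal convoluted and connecting tubule markers summed to medians of 217, 130.3 and 136 FPKM. The part of those segments was not tested.

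Of 11 collecting duct transcription factors, Pax2 was called lower at 3 against 1 day (-0.55 ± 0.15), where 10.5% of all tested genes were called. With Ehf it was also lower at 7 against 1 day (Pax2 -0.78 ± 0.15, Ehf -1.55 ± 0.50), where 38.2% were called. Ehf was not called without replicate 5 of day 1 (-0.93, edgeR adjusted p = 0.0847), nor was Pax2 at 3 against 1 day (-0.41, 0.0517). Calls gained without it were Gata3, higher at 7 than at 1 day (0.59 ± 0.23, edgeR adjusted p = 0.0491, and 0.00 ± 0.36 in the 15 libraries), and Pax8, lower (-0.36 ± 0.13, 0.0338, and -0.32 ± 0.12 in the 15 libraries). The test of any difference among days 1, 3 and 7 called neither Gata3 nor Tfap2b (edgeR adjusted p = 0.939 and 0.0968, and 0.109 and 0.0756 without replicate 5 of day 1). Of 7 other aquaporins, 4 were tested and 1 was called at 3 against 1 day and at 7 against 1 day. It was Aqp1, the water channel of the proximal tubule and thin descending limb, with 207, 135, 229, 105 and 140.4 FPKM at 3 days, against 55.4, 59.9, 59.5, 42.1 and 96.8 FPKM at 1 day (1.37 ± 0.36, edgeR adjusted p = 0.0272). Its change at 7 against 1 day was 0.97 ± 0.36. Aqp7, an aquaglyceroporin, was also called there without replicate 5 of day 1 (-0.50 ± 0.15, edgeR adjusted p = 0.0178). Adcy6, Pax8 and Aqp7 are named after their values were seen. Proximal tubule markers summed to medians of 1217, 1870 and 1507 FPKM at 1, 3 and 7 days, with overlapping ranges, and their part in the Aqp1 result was not tested.

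Several of these calls were lost when 1 library was left out. Each of the 10 libraries in a comparison was left out in turn, and no call was lost for Fkbp5, Zbtb16, Tsc22d3, Furin, Kcnj1, Atp1b1 and Snap23 at 3 against 1 day, for Fkbp5 and Kcnj10 at 7 against 3 days, or for Ptger3, Creb1, Prkar2a, Prkacb, Adcy3, Ptger4, Tsc22d3, Furin, Nedd4l, Kcnj10 and Pax2 at 7 against 1 day. At 3 against 1 day the call was lost in 5 of 10 omissions for Usp2 (highest edgeR adjusted p = 0.0661), in 7 for Pax2 (0.0766) and in 5 for Aqp1 (0.0719). At 7 against 3 days it was lost in 3 for Myo5b (0.0598), 8 for Ptger3 (0.105), 3 for Zbtb16 (0.066), 3 for Kcnj1 (0.0572) and 6 for Atp1b1 (0.0954). At 7 against 1 day it was lost in 7 for Prkaca (0.097), 8 for Vamp2 (0.107), 3 for Kcnma1 (0.0613), 4 for Ehf (0.0847), 1 for Fxyd4 and 7 for Aqp1 (0.148).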

How the data were processed

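Kidney RNA was enriched for poly(A) transcripts with oligo-dT beads and primed with random hexamers for cDNA, per the labels' protocols. The submitters' processing notes name fastp 0.19.7 and HISAT2 2.0.4. The sources used here do not say how reads were counted, whether strand was used, or which annotation and build served. The authors deposited a read count and an FPKM value for each gene in each library, per the file headers. Their FPKM equal the count over a fixed length per gene and over the library total (checked on 8250 genes, implied lengths within a ratio of 1.00002). Library totals ran between 5488540 and 12049915 counts.

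Counts were filtered with filterByExpr (minimum count 10, minimum total 15), scaled by TMM and given the quasi-likelihood test of edgeR 4.0.16 under R 4.3.3. Genes with a Benjamini-Hochberg adjusted p under 0.05 over all tested genes are called. Days 1, 3 and 7 were compared in a model of their 15 libraries (13991 genes) and 14 days in a model of all 18 (14511 genes). A standard error is the size of the log2 change over the root of its F statistic. The script was tested on simulated data. Ratios between genes were tested by exact permutation and correlations by 100000 permutations. CPM scale each count by the library total, with 95% Wilson intervals. Alternatives used DESeq2 1.42.0, limma 3.58.1, other scalings and filters, the replicate number as a block, and each library left out.

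All 10 genes are named, and of each pathway list up to 4 called genes with the largest change per comparison, plus Sgk1, Nedd4l, Tsc22d3, Gata3, Tfap2b, Fxyd4, Kcnj1, Ptger3 and Aqp1. A further gene that the rule names is not reported here. The genes, lists, tests and rule were chosen with earlier results of these data known.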

Additional observations from a re-analysis of the deposited data

Results flagged for a closer look

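In groups of 5 libraries, a value was picked out when its gap to the nearest other library exceeded 0.71 of the group's range (Dixon's criterion). Of 126 groups of named genes examined 17 gave such a value, and 13 of the 17 came from replicate 5 of day 1. Chance gives about 1 in 20 groups, but several of these genes were named with the high values of that library known, so the number is not to be read against that rate. In that library the high values among the 10 genes were Aqp2 (371 FPKM, other libraries of day 1 at 24.8 to 51.1), Aqp3 (380.4, others 17.9 to 31.6), Aqp4 (67.6, others 1.48 to 3.18), Avpr2 (18.0, others 2.49 to 4.87), Nr3c2 (5.86, others 2.47 to 3.40) and Elf5 (9.10, others 0.239 to 2.03). Beyond the 10 genes they were Fxyd4 (102 FPKM, others 3.64 to 8.22), Gata3 (33.1, others 7.74 to 10.4), Tsc22d3 (42.4, others 22.1 to 27.8), Adcy3 (3.46, others 1.44 to 1.97), Adcy6 (54.7, others 25.5 to 28.4), Prkaca (32.1, others 27.8 to 28.5) and Slc14a2 (27.4, others 0 to 1.26). In the same library Scnn1a, Scnn1b, Scnn1g and Hsd11b2 gave no such value.

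The remaining 4 were Aqp3 in replicate 4 of day 7 (46.5 FPKM, others 8.60 to 19.5), Kcnj1 in replicate 4 of day 1 (10.4 FPKM, lower than the others at 17.3 to 19.6), Myo5b in replicate 1 of day 3 (30.5 FPKM, others 18.1 to 21.5) and Slc14a2 in replicate 5 of day 7 (0.348 FPKM, others 0 to 0.051). Groups of 3 libraries, as at 14 days, were not examined this way.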

How the results depend on the processing

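The count of genes called at 3 against 1 day was 1463 and became 330 with all 18 libraries in a single model, 2216 with DESeq2, 3217 with voom sample weights and 775 to 2016 with 1 library left out. At 7 against 3 days 1108 became 152 with all 18 libraries, 1959 with DESeq2 and 324 to 1295 with 1 library left out. At 7 against 1 day 5351 stayed within 4435 to 5841 with 1 library left out. Fits on the 2 groups alone gave 3153 at 14 against 7 days (5560), 1851 at 14 against 3 days (4119) and 1628 at 14 against 1 day (4646). With 1 library left out these were 4559 to 7459, 2961 to 6720 and 3682 to 6405. For any difference among days 1, 3 and 7, 4816 became 2857 with all 18 libraries and 3861 to 5502 with 1 left out.

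Of the 10 genes, 9 were tested among days 1, 3 and 7 in the main fit. The share of all tested genes called stands in brackets for that fit alone. At 3 against 1 day the count called was 0 (10.5%) and became 1 with voom weights (Scnn1a). At 7 against 3 days 0 (7.92%) became 1 with the 2 groups alone (Aqp4) and with voom weights (Scnn1a), and 0 to 1 with 1 library left out. At 7 against 1 day 3 (38.2%) became 1 with all 18 libraries, DESeq2 or voom weights. It became 0 with the 2 groups alone, with limma on log2(FPKM+1) or log2(FPKM+0.1) and with the replicate block, and 0 to 4 with 1 left out. At 14 days against 7, 3 and 1 the counts without Elf5 were 5 (38.3%), 4 (28.4%) and 2 (32.0%). With 1 of the 14-day libraries left out they were 4 to 7, 3 to 4 and 1 to 3. Counted with Elf5, which entered through its high libraries alone, the count against 1 day was 3. That count became 1 with the 2 groups alone and 5 with voom weights. For any difference among days 1, 3 and 7, 2 (34.4%) became 0 with all 18 libraries, limma at either pseudocount or the replicate block. It became 1 with DESeq2 or no filter, and 0 to 4 with 1 left out. The cause of these shifts was not tested.

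Directions turned in values that had not passed the test. Gata3 at 7 against 1 day (0.00) became -0.01 with the 2 groups alone or no filter, 0.00 with a filter of 1 CPM in 5 libraries, and -0.15 to 0.59 with 1 library left out. With voom weights these were Aqp3 (0.19) and Aqp4 (0.44) at 3 against 1 day, and Scnn1a (-1.0) and Hsd11b2 (-1.10) at 14 against 7 days. With limma they were Scnn1a at 7 against 1 day (0.05 at either pseudocount), and at 14 against 7 days Scnn1a (-1.0 with a pseudocount of 1, -1.21 with 0.1) and Hsd11b2 (-1.43 and -1.57). With the replicate block they were Scnn1a (-0.20) and Hsd11b2 (-0.03) at 14 against 7 days, and with replicate 2 as the only 14-day library Scnn1b (0.38) and Scnn1g (0.38). With 1 library left out, 3 against 1 day gave Aqp3 -1.75 to 0.45, Aqp4 -2.28 to 0.81, Avpr2 -0.16 to 0.81, Scnn1b -0.23 to 0.03, Nr3c2 -0.30 to 0.05 and the log2 ratio of Hsd11b2 to Nr3c2 -0.13 to 0.21. At 7 against 3 days Avpr2 ran -0.06 to 0.29. At 7 against 1 day Avpr2 ran -0.05 to 0.90, Scnn1a -0.17 to 0.07, the ratio of Aqp3 to Aqp2 -0.14 to 0.15 and that of Aqp4 to Aqp2 -0.05 to 0.49. At 14 against 7 days Scnn1a ran -0.78 to 0.65, Scnn1b -0.62 to 0.36, Scnn1g -0.64 to 0.38 and Hsd11b2 -0.48 to 0.78.

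Libraries with the same replicate number did not deviate together (15 pairs, r -0.22 to 0.17, 7 over 0.1, 4 with the highest r to their own number), so the numbers are not taken to pair libraries. Depth limits several of the genes. The lowest counts were 1 for Elf5, 13 for Nr3c2, 33 for Avpr2 and 63 for Aqp4. Scnn1g, Scnn1b, Scnn1a and Hsd11b2 had their lowest counts, 6, 11, 29 and 30, in replicate 3 at 14 days. The settings that kept a single 14-day library, that left replicate 5 of day 1 out of other comparisons, or that left it out of correlations were chosen after seeing the data.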
